A study of Mus musculus with 12 samples.

Results

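Mouse embryonic stem cells (mESCs) are kept undifferentiated in serum by leukemia inhibitory factor (LIF), and the genes described here are 9 that carry the LIF signal to the transcription factor STAT3 or respond to it. They were listed by name for their place in the pathway, by a rule that uses no measured value though earlier results of these data were known, and comprise all exonic and intronic rows of the transcripts that GENCODE M1 assigns to Lifr, Il6st, Jak1, Stat3, Ptpn11, Socs3, Pim1, Pim3 and Gbx2. The 9 genes have 36 transcripts in the table, each with 1 exonic and 1 intronic row, among 34079 genes with exonic rows. On GRCm38.p6, RefSeq places Lifr at chr15:7090610-7197489 and Pim3 at chr15:88862194-88865726, Stat3 at chr11:100886806-100939594 and Socs3 at chr11:117966079-117970336. Il6st lies at chr13:112464070-112506860, Jak1 at chr4:101151974-101265282, Ptpn11 at chr5:121130533-121191397, Pim1 at chr17:29490785-29496111 and Gbx2 at chr1:89927962-89931176. Of the 9, 5 were grouped as receptors and transducers (Lifr, Il6st, Jak1, Stat3 and Ptpn11) and 4 as feedback and target genes (Socs3, Pim1, Pim3 and Gbx2).

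The cells were the XY line DTCM23/49, grown on gelatin in serum with recombinant mouse LIF and labeled with 200 µM 4-thiouridine (4sU), a uridine analog that enters RNA made during the pulse, for 15, 30 or 60 min. Labeled RNA was biotinylated and captured on streptavidin beads, and it was sequenced beside total RNA with 2 biological replicates for each RNA and labeling time, which gave 12 libraries, 6 of labeled and 6 of total RNA. All 12 libraries came from cells that had received both LIF and 4sU, so no library shows these genes without LIF or without the label. The replicates were subcultures of 1 culture that was divided and passaged. Tests without a block took the libraries as independent. Their p-values measure the spread among libraries of those subcultures, and not that among independent cultures.

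LIF binds the receptor LIFR, which pairs with the shared signaling chain GP130 (Il6st), and the kinase JAK1 bound to these chains phosphorylates STAT3, which then enters the nucleus and activates transcription. The phosphatase SHP2 (Ptpn11) docks on the same receptor chains and links them to the RAS and MAP kinase branch. Among the genes that STAT3 activates, Socs3 encodes an inhibitor that binds GP130 and JAK kinases and closes a negative feedback loop, Pim1 and Pim3 encode serine/threonine kinases, and Gbx2 encodes a homeobox transcription factor that helps to hold mESCs in the undifferentiated state.

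The values are length-normalized abundances that sum to nearly the same total in every library, at about 20 times TPM, and the sequencing depth behind them is unknown. All 10 listed mESC markers, Pou5f1, Nanog and Sox2 among them, passed the level needed for testing. So did all 3 matched neural markers, Pax6, Tubb3 and Neurod1. In total RNA the median of the summed level was 20909 for the mESC markers and 321 for the neural ones. The summed level of the 7 fibroblast markers lay between 32.1 and 55.8 in total RNA and between 23.9 and 42.4 in labeled RNA, with Thy1 the one of them above the level needed for testing and Col3a1, Dcn and Lum at 0 in all libraries. Introns took 6.53 to 7.41% of the abundance in total RNA and 6.99 to 14.8% in labeled RNA. The labeled libraries did not form 1 group in this respect: replicate 1 held 14.8% at 15 min and 13.9% at 60 min, whereas replicate 2 held 7.24% and 6.99%, within the range of total RNA. At 30 min the labeled replicates held 9.35% and 10.8%. Calls in labeled against total RNA were therefore refitted without one or the other pair of replicates.

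Socs3 was the only one of the 9 genes whose promoter window matched the letters TTCNNNGAA, the core that STAT dimers bind. The windows cover 250 bases before and 50 bases after a start listed by RefSeq on GRCm38.p6, and the 9 genes have 11 of them, because Lifr and Pim1 have 2 each. The motif reads the same on both strands, and 8.3% of all 32851 windows held it. The 250 bases before the listed Socs3 start are shown because Socs3 was also the target with the largest exonic difference between labeled and total RNA among those tested. They lie on the minus strand at chr11:117969367-117969616, within the gene's annotated span, which runs further upstream, and have the match in capitals, starting at base -154 from the start:
Socs3: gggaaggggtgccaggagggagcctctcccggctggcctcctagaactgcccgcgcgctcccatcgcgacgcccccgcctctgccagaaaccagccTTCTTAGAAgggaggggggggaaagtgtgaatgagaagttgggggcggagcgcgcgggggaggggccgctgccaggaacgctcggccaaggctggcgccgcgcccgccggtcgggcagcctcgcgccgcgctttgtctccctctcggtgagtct
This stretch is 71.6% G and C. The match describes letters only, and a window without a match says nothing about STAT3 binding at that gene.

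The pentamer ATTTA in the 3′ untranslated region (3′UTR) is the core of the AU-rich elements found in many short-lived mRNAs, and it was counted on the sense strand of the most abundant coding transcript of each gene. Over 10287 tested genes with such a transcript the median density was 1.12 per kb. Among the targets, Pim3 had 5 copies in 956 bases (5.23 per kb), Gbx2 had 3 in 658 bases (4.56 per kb), Socs3 had 4 in 1474 bases (2.71 per kb) and Pim1 had 1 in 698 bases (1.43 per kb). The receptors and transducers ranged from 0.55 per kb in Ptpn11 to 5.23 per kb in Lifr, so the density did not separate the roles. None of the 9 held the longer element ATTTATTTA, which 4.46% of the 10287 genes had. The sites of Socs3 and Pim3, the targets with the largest exonic differences, are shown with 8 bases on each side and the pentamer in capitals, with the position of its first base in the 3′UTR:
Socs3 at 676: gcagtagcATTTAgaagggag
Socs3 at 1398: gcacatatATTTAtatttata
Socs3 at 1404: atatttatATTTAtactcaga
Socs3 at 1434: tttcagtaATTTAtaataaaa
Pim3 at 471: ggtctcttATTTAtggtgtga
Pim3 at 518: ctggggctATTTAttgtttaa
Pim3 at 530: attgtttaATTTAtttgctga
Pim3 at 693: agtggctaATTTAaggggagt
Pim3 at 823: agcccttaATTTAttttagca
In Socs3, 3 of the 4 sites lay close together near the end of the 3′UTR, and those at 1398 and 1404 were separated by a single base.

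The steady-state levels of the pathway, read from exonic abundance in total RNA, fell into an upper tier of receptors and transducers and a lower tier of targets. Stat3 was the most abundant member, with a lowest, median and highest value of 659, 895 and 937, and it lay above Lifr in 6 of 6 libraries. Lifr (254, 314 and 364) and Ptpn11 (265, 298 and 345) overlapped, as did Il6st (200, 227 and 231) and Jak1 (149, 211 and 249), whereas Ptpn11 lay above Il6st in 6 of 6 libraries. All 5 were above every target in all total RNA libraries. Pim1 (61.3, 84.0 and 88.5), Socs3 (49.8, 61.1 and 96.0) and Pim3 (48.6, 59.5 and 75.4) overlapped with their neighbors in the order, and Socs3 exceeded Pim3 in only 3 of 6 libraries. Gbx2 was lowest, at 6.78, 9.36 and 13.7, below Pim3 in every library.

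The upper tier depends partly on noncoding transcripts that the annotation lists for these genes. Coding transcripts held 45.6% of the Stat3 abundance, 52.5% of that of Ptpn11 and 40.3% of that of Jak1 in total RNA, and 91.4 to 100% of that of the other members. Counted over coding transcripts alone, Stat3 remained highest with a median of 406, but Ptpn11 (median 155) fell below Il6st, and Jak1 (median 83.7) fell to the level of Pim1. Of the Stat3 transcripts, 9 of 14 were annotated as retaining an intron.

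**Figure D1:**
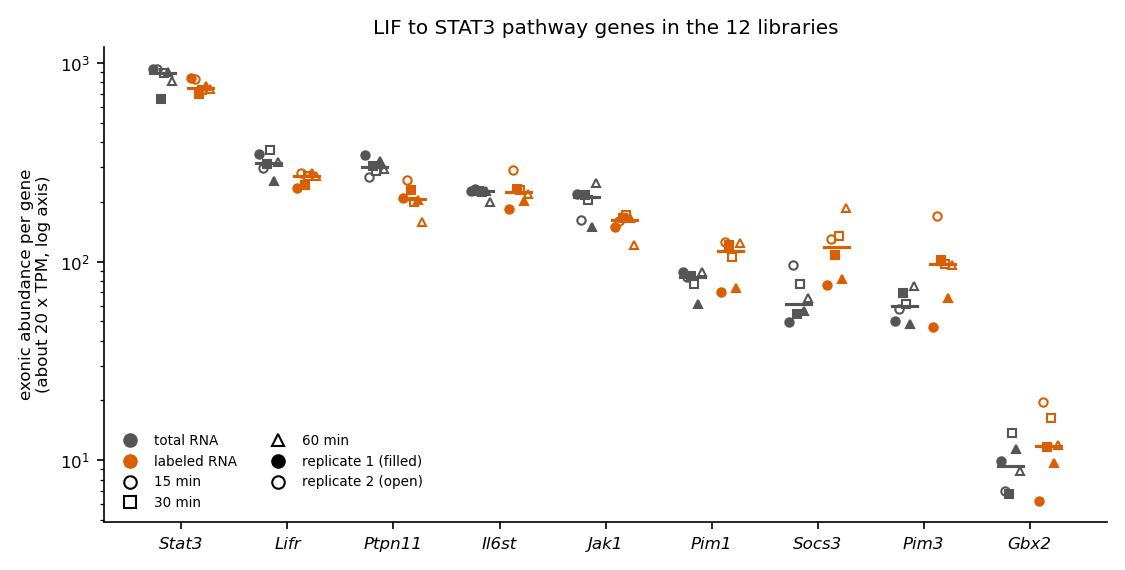
Exonic abundance of the 9 genes (y axis, about 20 times TPM, logarithmic) in the 12 libraries, ordered by median in total RNA; grey points are total RNA, orange points labeled RNA, shapes the labeling time, filled and open points replicates 1 and 2, and bars the medians. Every labeled Ptpn11 library, at 157 to 257, sits below every total RNA library, at 265 to 345, while the labeled Socs3, Pim1 and Pim3 libraries spread upward, with replicate 1 at 15 and 60 min lowest.

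The first comparison asked which members are over- or under-represented in newly transcribed RNA relative to the RNA present in the cell. Socs3 was higher and Ptpn11 lower in labeled RNA, the remaining 6 tested members did not pass the test, and Gbx2 was below the mean level of 20 needed for testing. Thus 1 of 8 tested members was higher, where 5.28% of all 13977 genes tested were, and 1 of 8 was lower, where 11.6% were. Among the members the direction followed the roles, since the 3 tested targets had positive log2 differences and 4 of the 5 receptors and transducers negative ones, with medians of 0.57 and -0.25 beside a median of -0.05 for all genes. This is a description of a few genes, and it was not tested as a group. The 10 other targets tested in the wider list below went both ways, from -0.43 in Bcl3 to 0.55 in Sgk1. For the level of a gene within either RNA, whole cultures do not tell fewer expressing cells from less RNA per cell. Further fits blocked the labeled and total library of the same time and replicate number together (the replicate block). They called 2 members as well, but 1270 genes in place of 2353. Another scaling of the libraries, by median ratios, changed the split of all genes from 738 higher and 1615 lower to 1358 and 1616.

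Socs3, the feedback inhibitor, had exonic values of 49.8, 61.1 and 96.0 (lowest, median and highest) in total RNA and 76.3, 119 and 186 in labeled RNA. The groups overlapped, because the highest total RNA library, replicate 2 at 15 min, lay above the 2 lowest labeled libraries, which were replicate 1 at 15 and 60 min. At 30 min (54.7 and 77.0 against 108 and 135) and at 60 min (56.7 and 65.5 against 82.0 and 186) both labeled libraries were above both total RNA libraries. The difference was 0.80 ± 0.24 on the log2 scale (SE, n = 6 and 6), 1.74-fold, with an adjusted p of 0.0429 by limma. The margin was narrow: the call held without total RNA replicate 2 at 15 min, labeled replicate 1 at 15 min or labeled replicate 1 at 60 min, and was lost without any one of the other 9 libraries, with log2 differences of 0.63 to 0.85 and adjusted p of 0.067 to 0.109. With the replicate block the same difference had an adjusted p of 0.0276. Replicate 2 was above replicate 1 at each labeling time in both labeled and total RNA. Without labeled replicate 2 at 15 and 60 min the log2 difference was 0.54 (adjusted p = 0.116), and without labeled replicate 1 at these times it was 1.09 (adjusted p = 0.0176). The call was also lost without the filter on low values (adjusted p = 0.0716), after quantile normalization (0.0849) and without the mean-variance trend (0.0529).

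Pim3 and Pim1, the kinases downstream of STAT3, were placed between these extremes. Pim3 had 48.6, 59.5 and 75.4 in total RNA and 46.8, 96.9 and 169 in labeled RNA, and the labeled values enclosed the total RNA values. Its log2 difference of 0.57 ± 0.27 had an adjusted p of 0.162, which became 0.0497 without labeled replicate 1 at 15 min (log2 difference 0.78). Pim1 had 61.3, 84.0 and 88.5 in total RNA and 70.4, 113 and 126 in labeled RNA, with 4 labeled libraries above all total RNA libraries and 2, again replicate 1 at 15 and 60 min, within their range. Its log2 difference was 0.33 ± 0.18 (adjusted p = 0.236). Without those 2 labeled libraries Pim1 (0.57, adjusted p = 0.0262) and Pim3 (0.91, adjusted p = 0.0246) were both called. Gbx2 had 6.78, 9.36 and 13.7 in total RNA and 6.25, 11.8 and 19.7 in labeled RNA, and, fitted without the filter on low values, a log2 difference of 0.32 ± 0.31 (adjusted p = 0.583).

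Ptpn11, which encodes SHP2, was the one member whose labeled and total RNA libraries did not overlap. It had 265, 298 and 345 in total RNA and 157, 206 and 257 in labeled RNA, a log2 difference of -0.54 ± 0.12 and a labeled level 0.69 times that in total RNA, with an adjusted p of 0.0139. The call held without any single library (log2 differences of -0.61 to -0.46, adjusted p of 0.00872 to 0.0413) and with the replicate block (adjusted p = 0.0467), as well as without labeled replicate 2 (-0.52, adjusted p = 0.00978) or labeled replicate 1 (-0.54, adjusted p = 0.0364) at 15 and 60 min. It was lost where all libraries of replicate 1 or of replicate 2 were left out (adjusted p = 0.544 and 0.294), fits that called 0 and 5 genes in all. In 7.28% of all genes tested every labeled library was below every total RNA library, and in 2.72% every one was above.

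The receptor chains, JAK1 and STAT3 differed less. Jak1 had 149, 211 and 249 in total RNA and 121, 162 and 172 in labeled RNA, and Lifr had 254, 314 and 364 against 235, 271 and 279, each with overlapping groups. The log2 difference was -0.35 ± 0.15 for Jak1 (adjusted p = 0.12) and -0.25 ± 0.11 for Lifr (adjusted p = 0.148), and both kept their sign in every alternative fit. Stat3, the transcription factor itself, had 659, 895 and 937 in total RNA and 697, 753 and 844 in labeled RNA, with a log2 difference of -0.15 ± 0.09 (adjusted p = 0.296) that fell to 0.00 after quantile normalization. Il6st had nearly the same median in both, 227 and 225, but its labeled values spread from 183 to 288 against 200 to 231 in total RNA, and its log2 difference was 0.00 ± 0.12 (adjusted p = 0.983).

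**Figure D2:**
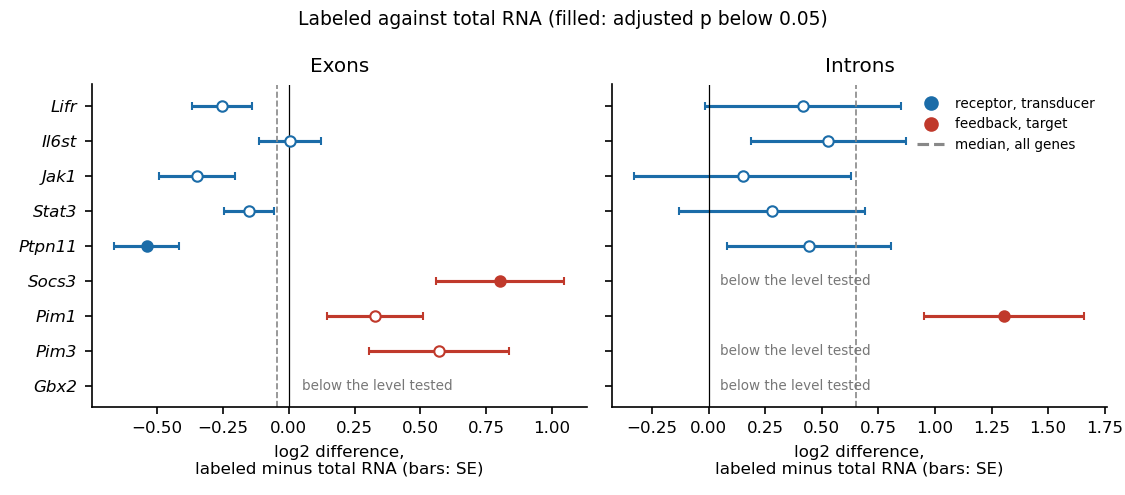
Log2 difference of labeled minus total RNA (x axis, bars are SE) for exons (left) and introns (right) of each member; blue marks receptors and transducers, red feedback and target genes, filled points adjusted p below 0.05, and the dashed line the median of all genes tested, -0.05 for exons and 0.65 for introns. In exons Socs3 lies at 0.80 and Ptpn11 at -0.54, and in introns Pim1, at 1.31, is the one filled point.

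Because a ratio within a library does not depend on how the libraries are scaled, the mean log2 level of the 4 targets was also set against that of the 5 receptors and transducers in each library. The targets lay below the receptors and transducers by a log2 difference of -3.15, -2.90 and -2.79 (lowest, median and highest) in total RNA and of -2.80, -2.02 and -1.73 in labeled RNA. The labeled libraries of replicate 1 at 15 and 60 min, at -2.80 and -2.56, were nearest to total RNA, and 5 of the 6 labeled libraries were above all total RNA libraries. These 2 libraries are also those with the largest intronic share, and the part of that share in the targets' levels was not tested.

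Exonic values of single transcripts were tested in the same way, and transcripts of the same gene were not tested against each other. Of the 36 transcripts 25 passed the filter on low values and 4 were called, 1 higher and 3 lower, where 5.24% of all 45495 transcripts tested were higher and 12.1% lower. The one higher was the coding Socs3 transcript ENSMUST00000054002, which encodes 225 residues and held 91.4% of the gene's abundance in total RNA. It had 42.2, 55.8 and 96.0 in total RNA and 76.3, 115 and 185 in labeled RNA, a log2 difference of 0.93 ± 0.26 (adjusted p = 0.0331). For Ptpn11 the coding transcript ENSMUST00000054547, with 597 residues, was lower by a log2 difference of -0.58 ± 0.12 (adjusted p = 0.01), and so was the noncoding ENSMUST00000148871 (-0.69 ± 0.19, adjusted p = 0.0295). The second coding Ptpn11 transcript, with 593 residues, had a log2 difference of -0.43 (adjusted p = 0.113). Transcripts of 1 gene share most of their exons, so that their abundances are estimates that divide the same reads.

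Lifr and Stat3 each have coding transcripts that end differently. Full-length LIFR of 1092 residues is encoded by ENSMUST00000067190 and ENSMUST00000171588, and a shorter form of 719 residues by ENSMUST00000164529. ENSMUST00000171588, whose exons span 9655 bases against 4143 in ENSMUST00000067190, was called lower, with 99.3, 115 and 135 in total RNA, 78.3, 89.3 and 96.9 in labeled RNA and a log2 difference of -0.38 ± 0.11 (adjusted p = 0.0352). The short form, with medians of 80.3 and 75.8, had a log2 difference of -0.01 ± 0.18 (adjusted p = 0.97). For Stat3 the most abundant coding transcript, ENSMUST00000127638, encodes 770 residues, the length of the alpha form, and had medians of 121 in total RNA and 107 in labeled RNA. ENSMUST00000103114 encodes 722 residues, the length of the beta form that lacks the C-terminal activation domain, and had medians of 110 and 87.0. Their log2 differences were -0.15 ± 0.10 and -0.27 ± 0.11 (adjusted p = 0.317 and 0.107). The transcript with the highest exonic value in total RNA was, for Stat3, the intron-retaining ENSMUST00000137093 (105, 130 and 197 against 73.4, 120 and 146 in labeled RNA, log2 difference -0.31 ± 0.19, adjusted p = 0.295) and, for Jak1, the full coding transcript ENSMUST00000102781 of 1153 residues (medians of 81.8 and 63.4, log2 difference -0.29 ± 0.14, adjusted p = 0.186). With the replicate block the Socs3 transcript (adjusted p = 0.0238) and ENSMUST00000054547 of Ptpn11 (0.0435) stayed called, and ENSMUST00000171588 of Lifr (0.0945) and ENSMUST00000148871 of Ptpn11 (0.0545) did not. Without labeled replicate 2 at 15 and 60 min the Socs3 transcript was lost (log2 difference 0.68, adjusted p = 0.0789), and without labeled replicate 1 at these times ENSMUST00000148871 was (0.0568). With no filter on low values ENSMUST00000171588 (adjusted p = 0.0619), ENSMUST00000148871 (0.0501) and the Socs3 transcript (0.0523) were lost. Quantile normalization lost ENSMUST00000171588 (0.0551) and the Socs3 transcript (0.051), and median-ratio scaling lost ENSMUST00000171588 (0.0784) and ENSMUST00000148871 (0.0779). ENSMUST00000054547 stayed called in each of these fits. Leaving out any single library left 1 to 4 member transcripts called.

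Introns are removed soon after transcription, and the second comparison set each member's intronic abundance in labeled RNA against that in total RNA. Both are relative to a library's whole abundance, so the newly made part of a gene's intronic RNA was not measured. Only 6 members had enough intronic signal to be tested (a mean of at least 5): the 5 receptors and transducers and Pim1. Pim1 was higher in labeled RNA, so that 1 of 6 was higher and none lower, where 30.2% of the 14780 genes tested were higher and 0.21% lower. Pim1 introns had 4.23, 6.84 and 11.0 in total RNA and 8.46, 21.8 and 36.4 in labeled RNA, overlapping only through labeled replicate 2 at 15 and 60 min. The log2 difference was 1.31 ± 0.36 and the adjusted p 0.0148, and the call held without any single library (adjusted p of 0.00134 to 0.0432) but not without all libraries of replicate 1 (log2 difference 0.84, adjusted p = 0.152). Relative to the median of all genes, 0.65, the Pim1 difference was 0.65 higher.

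The receptors and transducers lay below that median, at log2 differences of 0.15 for Jak1, 0.28 for Stat3, 0.42 for Lifr, 0.44 for Ptpn11 and 0.53 for Il6st, with adjusted p of 0.23 to 0.803. With quantile normalization or median-ratio scaling, which bring the median of all genes to -0.04 and 0.02, all 5 turned negative (-0.54 to -0.12), and the split of all genes went from 4463 higher and 31 lower to 885 and 800 or 1093 and 817. Pim1 stayed positive under both, at 0.61 (adjusted p = 0.0523) with quantile normalization. The labeled replicates were far apart in these introns. Lifr introns were at 154 and 30.9 in replicates 1 and 2 at 15 min, 47.1 and 71.1 at 30 min and 158 and 26.1 at 60 min, against 40.2 to 55.2 in total RNA. In all 6 tested members replicate 1 exceeded replicate 2 at both 15 and 60 min, as it did in 87.9% of all genes tested. Without labeled replicate 2 at these times all 6 members were called higher (Jak1 least, at 0.87), among 13131 genes called higher, and without labeled replicate 1 the differences of Lifr, Jak1, Stat3 and Ptpn11 were negative.

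In exons the targets were lower in the intron-rich labeled libraries. Socs3, Pim1, Pim3 and Il6st were higher in labeled replicate 2 than in replicate 1 at both 15 and 60 min, Stat3 was lower, and over all genes 20.5% were higher and 21.3% lower at both times. Pim3 differed most, with 46.8 and 169 at 15 min. The introns of Socs3, Pim3 and Gbx2 were near the reporting limit of 1: Socs3 had intronic values in 3 of 6 total and 2 of 6 labeled libraries, Gbx2 in 1 and 3, and Pim3 in 1 and 5. Pim3 introns reached 7.31 in labeled RNA and 2.36 in total RNA, and without the filter on low values were called higher (adjusted p = 0.0167), the listed 0 being a value below the limit.

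**Figure D3:**
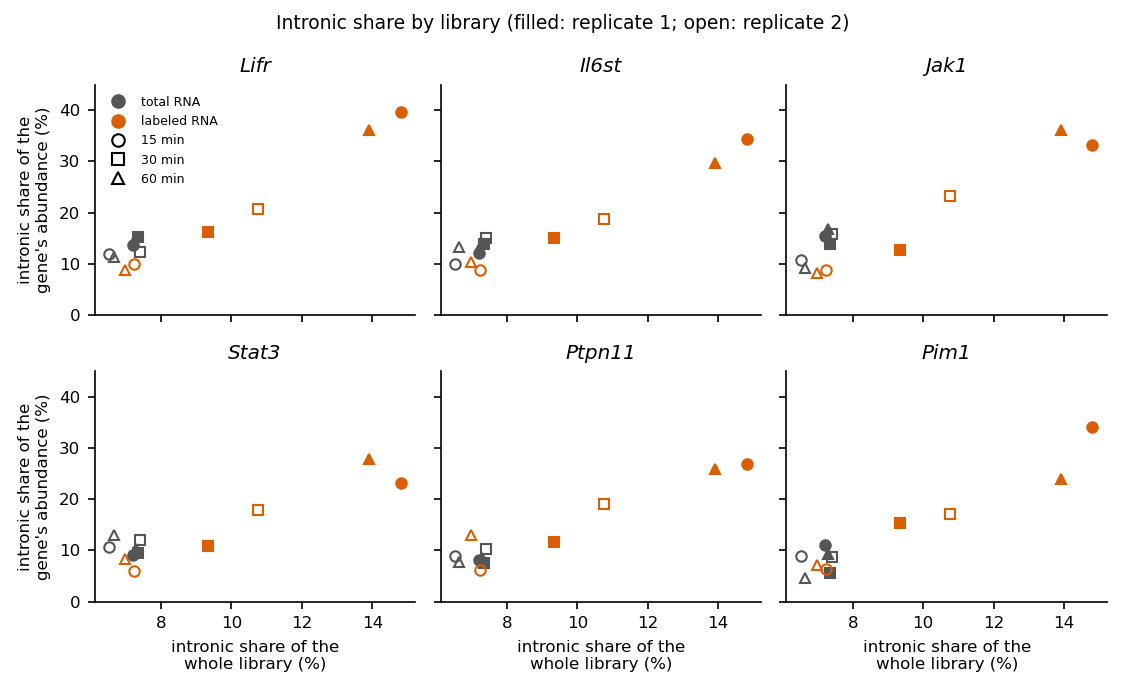
Share of a gene's abundance that is intronic (y axis, %) against the intronic share of the whole library (x axis, %) for the 6 members with tested introns; grey points are total RNA, orange points labeled RNA, shapes the labeling time, filled and open points replicates 1 and 2. In each gene labeled replicate 1 at 15 and 60 min stands highest, up to 39.6% in Lifr. Labeled replicate 2 at these times lies below all total RNA libraries in Lifr, Jak1 and Stat3 and within their range in Pim1. In Il6st and Ptpn11 it lies below them at 15 min. At 60 min it is within their range in Il6st and above it in Ptpn11 (12.9% against at most 10.2%).

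The ratio of exonic to intronic abundance, which is lower where more of a gene's RNA is unspliced, was compared in the same 6 members. None was called, where 26% of the 10228 genes tested were lower in labeled RNA and 0.166% higher. The log2 differences ranged from -0.43 in Stat3 to -0.98 in Ptpn11 and Pim1, around the median of -0.70 for all genes. In limma, Ptpn11 and Pim1 had an unadjusted p of 0.0242 and 0.0473 and an adjusted p of 0.0713 and 0.109. Both were called with the replicate block (adjusted p = 0.0424 and 0.0397) and without labeled replicate 2 at 15 min (log2 differences of -1.31 and -1.36), and Pim1 also without labeled replicate 2 at 60 min (-1.22, adjusted p = 0.047). As shares, the intronic part of Ptpn11 was 7.49, 8.33 and 10.2% in total RNA and 6.12, 16.0 and 26.8% in labeled RNA. That of Pim1 was 4.56, 8.78 and 11.0% in total RNA and 6.31, 16.2 and 34.1% in labeled RNA.

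No member differed detectably between labeling times. In simulated data the test in labeled RNA recovered only 123 of 200 genes changed by a log2 difference of 2. Between 60 and 15 min no gene was called in labeled RNA, in total RNA or in the difference between them (0% of 13977 genes in each), and at an unadjusted p below 0.05 there were 178, 108 and 162 genes in limma, the one tool used. None of the 8 tested members was among those, and their adjusted p were 1. In labeled RNA the members ranged from a log2 difference of -0.37 ± 0.23 in Ptpn11 to 0.31 ± 0.45 in Socs3, and in total RNA from -0.22 ± 0.35 in Pim1 to 0.17 ± 0.51 in Pim3.

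Labeled Ptpn11 was at 210 and 257 at 15 min, 228 and 201 at 30 min and 203 and 157 at 60 min, with overlapping values at neighboring times. Labeled Socs3 was at 76.3 and 129 at 15 min, 108 and 135 at 30 min and 82.0 and 186 at 60 min. The replicates of Socs3 at 60 min were further apart than the means at any of the times, and its difference turned negative without labeled replicate 2 at 60 min (-0.27) or labeled replicate 1 at 15 min (-0.07). For the change over time in labeled relative to total RNA, the extremes were again Ptpn11 (-0.39 ± 0.32) and Socs3 (0.49 ± 0.64).

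**Figure D4:**
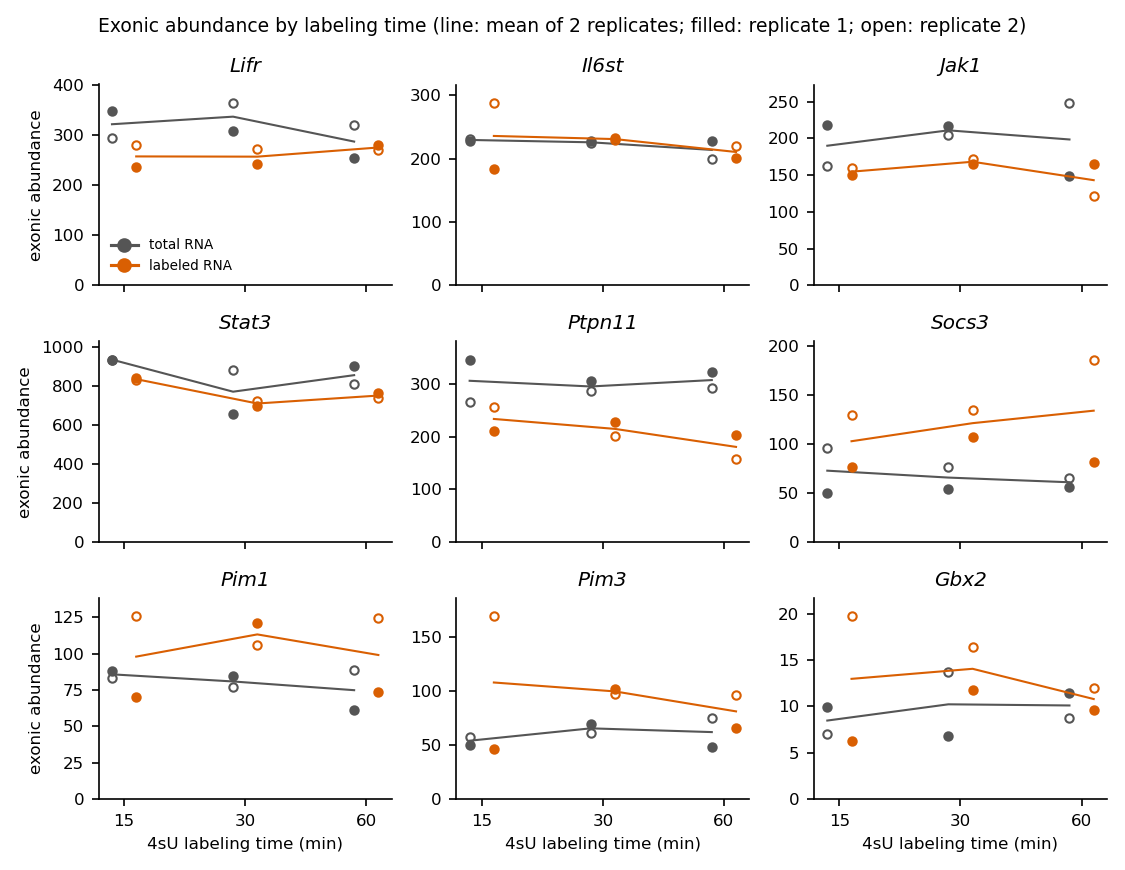
Exonic abundance (y axis, about 20 times TPM, from 0) of each member by 4sU labeling time (x axis, min); grey is total RNA, orange labeled RNA, filled and open points replicates 1 and 2, and lines join the means of 2. Labeled Ptpn11 stays below total RNA at each time. Labeled Socs3 ranges from 76.3 to 186, with means of 103, 121 and 134 at 15, 30 and 60 min and overlapping replicate values.

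The wider pathway was read from a list of 50 related genes, which holds ligands and other receptors, kinases and adaptors, inhibitors, and further targets. Of these, 36 were tested, and 3 were higher and 5 lower in labeled RNA, where 5.28% and 11.6% of all genes were. The lower count was close to its share, and the median log2 difference was -0.09. The higher genes were Lif, Osm and Pias3. Because Lif and Osm passed the filter through labeled RNA alone, the higher count is not read against its share. Among the ligands and receptors, Lif, Osm and Cntf reached the mean of 20 needed for testing only through labeled RNA, as did Jak3 among the kinases. Cntf and Jak3 were not called. Lif and Osm are high in labeled RNA, so that their calls (adjusted p = 0.0126 and 0.042) carry no weight and are given as values. Lif itself had 3.97, 13.4 and 15.3 in total RNA and 17.7, 33.8 and 41.4 in labeled RNA, without overlap. Osm, which encodes the related cytokine oncostatin M, was at 8.62, 11.4 and 26.0 against 15.2, 27.6 and 45.5, overlapping. Il6 and Osmr had no exonic value in any library.

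Among kinases, STATs and adaptors 3 of 10 tested were lower, where 11.6% of all genes were, and none was higher. The adaptor gene Grb2 ranged from 378 to 440 in total RNA and from 205 to 364 in labeled RNA, without overlap, with a log2 difference of -0.76 ± 0.13 (adjusted p = 0.0029). Gab1 (-0.53 ± 0.14, adjusted p = 0.0223) and Shc1 (-0.42 ± 0.11, adjusted p = 0.0242), which also encode adaptors, were lower too, while Sos1, which encodes the exchange factor that GRB2 binds, had a log2 difference of -0.29 ± 0.15 (adjusted p = 0.198). Of 12 inhibitors tested, Pias3, a STAT3 inhibitor, was higher (0.55 ± 0.16, adjusted p = 0.0411) and Pias2 lower (-0.50 ± 0.12, adjusted p = 0.0189). Of 10 other targets tested, Tfcp2l1, a pluripotency transcription factor, was lower (-0.41 ± 0.12, adjusted p = 0.0373) and none was higher. Klf4, another LIF target, had medians of 276 and 376 and a log2 difference of 0.30 ± 0.18 (adjusted p = 0.262). The 10 tested targets of the list ranged from -0.43 ± 0.29 in Bcl3 to 0.55 ± 0.21 in Sgk1, neither of them called, with a median of 0.14. With the replicate block Grb2 and Pias2 stayed called (adjusted p = 0.0167 and 0.0419), and Gab1, Shc1, Pias3 and Tfcp2l1 did not (0.0699, 0.06, 0.0631 and 0.082). Tfcp2l1 was also lost without labeled replicate 2 (adjusted p = 0.0758) or labeled replicate 1 (0.0667) at 15 and 60 min, and Gab1 (0.063) and Pias3 (0.081) without the latter. With no filter on low values neither Pias3 nor Tfcp2l1 was called (0.0663 and 0.052), and Tfcp2l1 was not with quantile normalization (0.0713) or median-ratio scaling (0.0635) either.

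The genes whose exonic levels followed the members most closely over the 12 libraries were found by Pearson's r on the log2 scale among the 13977 genes tested. For Lifr these were Pltp (r = 0.92), Arid2 (r = 0.92) and Fam76b (r = 0.91), which, like Lifr, had lower medians in labeled RNA. For Socs3 they were 2810008D09Rik (r = 0.94), Ier3 (r = 0.93) and Gm561 (r = 0.93), with medians of 145, 14.8 and 59.8 in total RNA and 347, 42.8 and 102 in labeled RNA. The 12 points share the division into labeled and total RNA and the replicates that stand apart, and the highest correlations among so many genes are high in part by selection, so they are given as a description.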

How the data were processed

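4sU-labeled and total RNA of mESCs were sequenced in 12 libraries as 100-nt reads. The authors removed rRNA reads with STAR 2.5.0, aligned to exonic and intronic sequences (mm10 per the labels) and quantified with RSEM. The deposited signal is a length-normalized abundance per transcript that sums to 19988830 to 19992902 per library. Values of 1 or less are missing and were set to 0. The scaling is not given in the sources used here.

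Transcripts were assigned to genes with GENCODE M1 (83847 of 111672 Ensembl exonic rows found), which is on another build and served for names, types and 3′UTRs only. Gene sums with a mean of at least 20 (exons) or 5 (introns) were tested on log2(value + 1), which understates changes of low genes, with limma 3.58.1 in R 4.3.3 (mean-variance trend except for the exon to intron ratio, labeling time as a factor, two-sided, Benjamini-Hochberg at 0.05 over all genes). The fits were tested on simulated data of 13977 genes, 200 of them changed by a log2 difference of 2. Labeled against total RNA recovered 179 of these and called 10 others. Labeled RNA at 60 against 15 min recovered 123 and called 5 others.

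Members and lists were chosen with earlier results of these data known. Named were the 9 genes, the 4 largest rises and 4 largest falls past the test in the wider list, the 3 genes most like Lifr and Socs3, and the highest transcript of each member and those past the test. Tfcp2l1, Klf4, Bcl3, Sgk1, Cntf, Jak3, the genes listed at 0 and other transcripts were named after their values were seen. Listed endoderm, mesoderm and neural markers (Sox1 had no match) summed to 2.6 to 23.1, 1.0 to 8.5 and 190.0 to 444.5.

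Replicate numbers mark subcultures. At 15, 30 and 60 min the deviations of labeled and total RNA from their means correlated, number by number, at -0.07, 0.05 and -0.19 over genes. Block values are given where they change a call. The other alternatives were a pseudocount of 20, no filter, values in all 12 libraries, replicates or libraries left out, quantile and median-ratio scaling, no trend and the highest transcript per gene.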

Additional observations from a re-analysis of the deposited data

Results flagged for a closer look

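Among 31 sets of 6 libraries examined (exonic and intronic values of the members in labeled and in total RNA, without 5 of 36 sets that had values in fewer than 4 libraries), 1 held a library far from the other 5, where chance gives about 1 in 20. Il6st in total RNA was at 199.66 in replicate 2 at 60 min, while the other 5 libraries lay between 224 and 231, a gap of 0.773 of the whole range. No member passed the test for a change over labeling time that differs between labeled and total RNA.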

How the results depend on the processing

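With labeled replicate 2 at 15 and 60 min left out (chosen after seeing the data), members called numbered 1 (exons), 6 of 13186 genes (introns) and 6 of 8411 (exon to intron ratio), 12677 transcripts were called, and Il6st exons were at -0.10. Without labeled replicate 1 at these times they numbered 4 in exons, and 1681 genes were called for the ratio. Introns then gave -0.32 (Lifr), -0.63 (Jak1), -0.34 (Stat3) and -0.094 (Ptpn11), and the ratio 0.072 (Lifr), 0.12 (Il6st), 0.23 (Jak1) and 0.18 (Stat3).

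Of the members, 1 in exons and 2 in introns were called with no filter, 1 in exons and 0 in introns with quantile normalization (1685 genes in introns), and 1 in exons without the trend. A pseudocount of 20 gave 1 for the ratio. Quantile normalization put Stat3 exons at 0.0004 and introns at -0.28 (Lifr), -0.17 (Il6st), -0.54 (Jak1), -0.37 (Stat3) and -0.25 (Ptpn11). Median-ratio scaling (1910 genes in introns) put introns at -0.24, -0.12, -0.50, -0.38 and -0.21, in the same order of genes. Member transcripts called numbered 1 with no filter and 2 with median-ratio scaling, which split all called transcripts into 4139 higher and 4521 lower (2385 and 5485 otherwise).

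With the replicate block 1270 genes (2 members) were called in exons, 2 members for the ratio and 4444 transcripts (2 of members), and it changed no other call of a named member. In 2 of the 6 groups of RNA and labeling time the replicate deviations correlated best with those of their own number.

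Between 60 and 15 min, labeled RNA gave 6 genes with no filter and 2 without the trend, total RNA 4 with a pseudocount of 20, 8 with no filter, 3 with median-ratio scaling, 4 without the trend and 3 with the highest transcript, and the difference between them 4 with a pseudocount of 20, 8 with no filter and 5 without the trend. No member was among them.

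Leaving out replicates or single libraries gave 0 to 2931 genes and 0 to 3 members in exons, 1833 to 8052 and 0 to 2 in introns, 331 to 6238 and 0 to 4 for the ratio, and 0 to 10421 transcripts and 0 to 4 of members. Over time it gave 0 to 8, 0 to 7 and 0 to 11 genes, and 0 members. Named differences ranged from -0.15 to 0.16 (Il6st exons), -0.17 to 1.01 (Lifr introns), -0.36 to 0.66 (Jak1 introns), -0.51 to 1.07 (Stat3 introns), -0.050 to 0.93 (Ptpn11 introns), -1.12 to 0.069 (Il6st ratio) and -1.17 to 0.31 (Stat3 ratio), and over time from -0.27 to 0.90 (Socs3, labeled), -0.52 to 0.087 (Pim1, total), -0.15 to 0.48 (Pim3, total), -0.84 to 0.060 (Ptpn11, difference) and -0.094 to 1.08 (Socs3, difference). Leaving out a whole replicate left no spread for the test over time, so it has a difference only. Of 590 alternative values of named genes, 503 kept direction and side of the threshold. The cause of the changes was not tested.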
